A study of Mus musculus with 24 samples.

Results

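Transcript levels in inguinal fat of mice lacking Bmal1 in fat cells were compared between CT18 and CT6, opposite points of the circadian cycle. The comparison used the 3 arrays labelled Ad-Bmal1-/- at CT18 and the 3 labelled Ad-Bmal1-/- at CT6, chosen by their titles, out of 24 arrays in the series. The 24 arrays form 8 groups of 3 biological replicates, each genotype at CT0, CT6, CT12 and CT18, where CT0 opens the subjective day. CT6 is therefore the middle of the subjective day and CT18 the middle of the subjective night. Knockout mice had the genotype aP2-Cre+/- Bmal1fx/fx. Control mice carried the same floxed Bmal1 alleles without Cre, so an effect of Cre itself cannot be told apart from the deletion. The aP2 promoter drives Cre in adipocytes, and recombination in other cells of the fat pad was not measured. The mice, on chow, had been crossed to C57BL/6J for 6 generations or more. They spent the 36 h before the start of collection in constant darkness, and each group had fasted for 24 h. Each time point therefore comes from different animals, and time of day and the clock hours of the fast moved together.

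Bmal1, whose gene symbol is Arntl, pairs with CLOCK and binds E-box sequences in the promoters of its targets. Among these targets are the Per and Cry genes, whose proteins inhibit the pair, and the nuclear receptors REV-ERBα (Nr1d1) and REV-ERBβ (Nr1d2), which repress Arntl. The output factors Dbp, Tef and Hlf activate D-box genes, while Nfil3 represses them. The mixed fat pad holds adipocytes, progenitors, immune cells, vessels and nerves, and cells in which Cre is not active keep their own clock. Whether a bulk difference reflects fewer cells of a type or less RNA per cell cannot be told apart here.

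The values are log2 expression, so a difference of 1 is a 2-fold change, and all differences are CT18 minus CT6 given ± their standard error (SE) from limma. Arntl, the targeted gene (probe set 10556463), lay at 7.08, 6.90 and 6.88 on the 3 knockout arrays at CT6 and at 7.43, 7.29 and 7.07 at CT18. In control fat it lay at 6.82, 6.82 and 6.54 at CT6 and at 7.04, 7.38 and 7.55 at CT18. Arntl was thus not lower in the knockout arrays at CT6, and the genotypes overlapped at CT18, so this probe set does not check the genotype labels at these times. Which part of Arntl the probe set covers is not given in the sources used here.

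A pair of the 6 knockout arrays stood apart. CT6 replicate 2 carried transcripts typical of liver, named after their values were seen. Alb, encoding serum albumin, read 11.2 there against 6.30 and 7.55 on the other CT6 arrays and 7.01 to 7.74 at CT18. Apoa2, an apolipoprotein, read 11.5 against 6.93 to 7.26 on the other 5 arrays, and Fabp1, the liver fatty acid binding protein, read 9.01 against 3.81 to 4.30. Fga, encoding a fibrinogen chain, was not raised on that array, at 5.19. CT18 replicate 3 correlated with its own group at 0.986 to 0.987, against 0.993 for the other pair of CT18 arrays. Zim1, an imprinted gene that earlier results of these data place higher in knockout fat, read 5.24 on that array and 9.05 to 10.4 on the other 5. On the library labelled control CT18 replicate 3 Zim1 read 8.80, against 6.83 and 6.08 on the other control CT18 arrays. Ces1d, a carboxylesterase gene that those results place lower in knockout fat, read 10.7 on the library labelled knockout CT18 replicate 3 against 10.1 to 10.3 on the other 5 knockout arrays. On the library labelled control CT18 replicate 3 it read 10.5, against 10.8 to 11.0 on the other control arrays at CT6 and CT18. Elovl6 read 9.31 on the library labelled knockout CT18 replicate 3, above all control arrays at these times (6.76 to 7.90). It read 7.40 on the library labelled control CT18 replicate 3, within the range of the other control arrays. By Zim1 and Ces1d these libraries each lay toward the other genotype. By Elovl6 the library labelled knockout lay above the other 5 knockout arrays (6.61 to 6.87), on the side of control fat and beyond its range. The library labelled control did not move by Elovl6. Whether their labels were exchanged was not tested, and every CT18 value of either genotype rests on the labels as given. Without replicate 3 at CT18 and replicate 1 at CT12 of both genotypes, Nr1d1, Nr1d2 and Slc6a6 passed in knockout fat. Control CT18 replicate 2 also carried liver transcripts, with Fabp1 at 8.06 against 3.95 to 4.12 and Apoa2 at 9.52 against 7.01 to 7.56 on the other 5 control arrays at these times. The median gene level lay between 6.46 and 6.56 on the 6 arrays.

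Of 19938 genes tested, 4 passed an adjusted p of 0.05 in knockout fat (0.0201%), and all 4 were lower at CT18. They were Nr1d1, Nr1d2, the taurine transporter gene Slc6a6 and Cybrd1, which encodes a ferric reductase of the plasma membrane. No gene passed as higher at CT18 by limma, although 1365 genes were higher and 993 lower at an unadjusted p of 0.05, where 997 in all would be expected by chance. Both REV-ERB receptors belong to the clock. The other pair, Slc6a6 and Cybrd1, are membrane proteins outside the clock list.

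The promoter stretches of the called genes are shown because their sequence bears the clock motifs that were searched for or lacks them. They are the 250 bases before the annotated start in RefSeq (GRCm38.p6), written 5′ to 3′ on the gene's strand, and 3 of the 4 genes had an entry. Capitals mark a match to a motif, on either strand: the E-box CACGTG, the D-box TTATGTAA or TTACGTAA, or the REV-ERB/ROR element AGGTCA. The stretches are chr11:98775378-98775627 (minus strand) for Nr1d1, chr14:18239107-18239356 (minus strand) for Nr1d2 and chr2:71117804-71118053 (plus strand) for Cybrd1.
Nr1d1: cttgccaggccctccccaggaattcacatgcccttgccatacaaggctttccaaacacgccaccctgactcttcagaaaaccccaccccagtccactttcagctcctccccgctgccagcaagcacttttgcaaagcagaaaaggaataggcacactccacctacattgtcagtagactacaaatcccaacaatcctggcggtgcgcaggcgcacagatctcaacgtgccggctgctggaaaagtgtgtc
Nr1d2: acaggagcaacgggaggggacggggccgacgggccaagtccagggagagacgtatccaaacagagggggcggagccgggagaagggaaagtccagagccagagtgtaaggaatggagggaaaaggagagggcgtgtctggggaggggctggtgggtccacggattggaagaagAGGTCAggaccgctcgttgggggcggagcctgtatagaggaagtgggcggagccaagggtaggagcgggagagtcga
Cybrd1: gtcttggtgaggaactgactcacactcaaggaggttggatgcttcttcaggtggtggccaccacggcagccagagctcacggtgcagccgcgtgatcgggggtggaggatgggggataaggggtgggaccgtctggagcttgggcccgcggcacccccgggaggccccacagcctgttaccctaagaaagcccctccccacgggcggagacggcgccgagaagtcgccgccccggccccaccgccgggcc
The Nr1d2 stretch held AGGTCA, beginning 77 bases before the start, and the other pair held none of these letters. Of all 32851 windows of this length, 6.02% held the E-box, 0.931% a D-box and 14.0% the REV-ERB/ROR element, so a match to it alone is common. Among 15 clock genes with an entry, 5 held an E-box (Per1, Cry1, Tef, Bhlhe41 and Ciart), 1 a D-box (Per3) and 4 a REV-ERB/ROR element (Nr1d2, Clock, Per1 and Nfil3). A gene counted if any of its windows held the motif. The shares over all windows count single windows, so the gene counts are not directly comparable with them. A match is a description of the letters and not a bound site. Bases outside these windows were not searched, so the lack of a match does not show that a gene lacks the motif.

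Nr1d1 (probe set 10390691, chr11:98767932-98775377, GRCm38.p6) showed the clearest difference. It lay at 9.29, 9.30 and 9.18 at CT6 and at 7.10, 7.11 and 7.07 at CT18. The 3 night arrays were nearly identical and far below every day array. The difference was -2.16 ± 0.16, a 4.47-fold lower level at CT18 (limma adjusted p = 1.21e-07). Across the 4 knockout times Nr1d1 averaged 7.96, 9.26, 8.49 and 7.09, highest at CT6 and lowest at CT18. Control fat had the same order of times and a difference of -2.50 ± 0.16. The steps in the genotypes differed by 0.33 ± 0.22, with a 95% interval from -0.13 to 0.80, which includes 0.

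Nr1d2 (probe set 10417734, chr14:18204056-18239106) lay at 8.75, 8.65 and 8.82 at CT6. At CT18 it lay at 7.31, 7.43 and 7.74, so that the highest night array, replicate 3, was still below every day array. It fell by 1.25 ± 0.17 on the log2 scale, or 2.38-fold (limma adjusted p = 0.0023). Its mean over the 4 knockout times was 8.07, 8.74, 8.78 and 7.49, so CT6 and CT12 were close together and CT18 was lowest. Without CT18 replicate 3 its difference was -1.37. The control difference was -1.15 ± 0.17, and the steps in the genotypes differed by -0.10 with an interval from -0.59 to 0.39.

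Slc6a6 (probe set 10540122, chr6:91684048-91759063) encodes the transporter that brings taurine into cells. It lay at 8.94, 9.02 and 9.15 at CT6 and at 8.26, 8.40 and 8.07 at CT18, with no overlap. It fell by 0.79 ± 0.11, or 1.73-fold (limma adjusted p = 0.00465). In knockout fat its mean was 8.79 at CT0, 9.04 at CT6, 8.71 at CT12 and 8.25 at CT18. The control step was -0.90 ± 0.11, and the difference between the steps was 0.11 with an interval from -0.23 to 0.44. The call was lost without CT18 replicate 3 (-0.70, adjusted p = 0.0526), without CT6 replicate 3 (-0.73, adjusted p = 0.0599) and when only the 6 arrays were fitted (adjusted p = 0.132).

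Cybrd1 (probe set 10472757, chr2:71118054-71142926) reduces ferric iron ahead of its uptake. It lay at 7.93, 7.86 and 7.50 at CT6 and at 6.77, 7.02 and 6.50 at CT18. Replicates spread widely within each time, but the times did not overlap. It fell by 0.999 ± 0.172, or 2.00-fold, with a limma adjusted p of 0.0455, just inside the threshold. In knockout fat the mean was 6.87 at CT0, 7.77 at CT6, 6.92 at CT12 and 6.77 at CT18, so CT6 stood above the other 3 times. In control fat CT6 and CT12 were alike at 7.42 and 7.40, and the step of -0.61 ± 0.17 did not pass (adjusted p = 0.35). The difference between the genotypes, -0.39 ± 0.24 with an interval from -0.90 to 0.11, did not pass either. Cybrd1 lost its call without CT6 replicate 1 (-0.91, adjusted p = 0.142), CT6 replicate 2 (-0.95, adjusted p = 0.185), CT18 replicate 1 (adjusted p = 0.106) or CT18 replicate 3 (-0.87, adjusted p = 0.331).

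**Figure D1:**
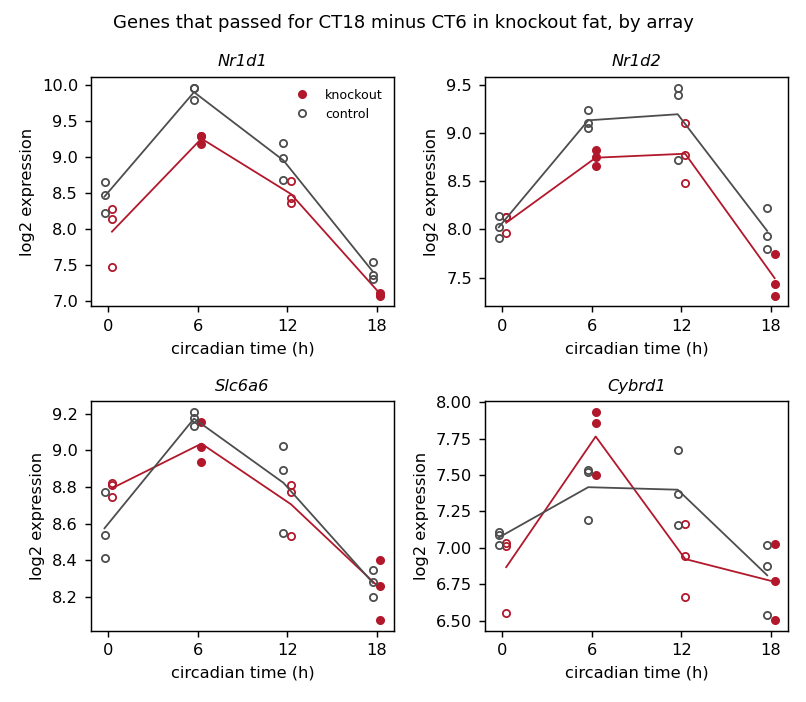
Log2 expression (vertical axes, a separate scale for each gene) against circadian time in hours for the 4 called genes. Red points are knockout arrays, filled at CT6 and CT18, grey circles are control arrays, and lines join the group means of 3 arrays. Each filled CT18 point lies below each filled CT6 point of its gene, and Nr1d1 runs from a mean of 9.26 at CT6 to 7.09 at CT18.

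The number of called genes turned on single arrays. Without CT18 replicate 2, 115 genes passed, 37 higher and 78 lower, among them the 4 above. Without CT18 replicate 1, 7 passed, and without CT18 replicate 3 the 3 genes that passed were Nr1d1, Nr1d2 and the lysophosphatidic acid receptor gene Lpar4, the last as higher (1.16, adjusted p = 0.0279). Without CT6 replicate 2, the array with liver transcripts, Nr1d1, Nr1d2, Slc6a6 and Lpar4 passed. The number of genes whose groups did not overlap was 2801 (14%), 1186 lower at CT18 (5.95%) and 1615 higher (8.1%).

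Of the 17 measured clock genes, 2 passed as lower, Nr1d1 and Nr1d2, and none as higher. The median clock difference was -0.12 and 35.3% of the genes were higher at CT18, against a median of 0.04 and 60.2% over all genes. The groups of 7 clock genes did not overlap, 5 lower at CT18 (Nr1d1, Nr1d2, Dbp, Hlf and Bhlhe41) and 2 higher (Nfil3 and Cry1). Over all genes the groups of 14% did not overlap, 5.95% lower and 8.1% higher.

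Among the activators, the Arntl values above gave 0.31 ± 0.16 (limma adjusted p = 0.445), and CT18 replicate 3 lay within the CT6 range. Clock, the partner of Arntl, lay between 9.57 and 9.66 at CT6 and at 9.90, 9.79 and 9.33 at CT18, a difference of 0.04 ± 0.14. Its pair of higher night arrays was offset by replicate 3, which read below the day arrays, and the difference was 0.21 without it. Rora, encoding a receptor that activates through the same element that REV-ERB represses, differed by 0.14 ± 0.13, read highest at 8.45 on CT18 replicate 3, and differed by 0.0022 without that array.

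The inhibitors of the activator pair differed little. Per1 lay at 7.85, 7.83 and 8.01 at CT6 and at 7.68, 7.83 and 7.82 at CT18, a difference of -0.12 ± 0.14 with overlapping groups. Per2 differed by 0.04 ± 0.10, with all 6 arrays between 6.96 and 7.14, and Cry2 by -0.06 ± 0.11 (-0.01 without CT18 replicate 3). Per3 lay at 7.16, 7.45 and 7.22 at CT6 and at 6.98, 6.87 and 7.37 at CT18, where replicate 3 was within the day range, and its difference of -0.20 was -0.35 without that array.

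Cry1, encoding a strong inhibitor of CLOCK and BMAL1, lay at 7.43, 7.49 and 7.35 at CT6 and at 7.76, 7.77 and 7.53 at CT18. All night arrays were above all day arrays, but 0.26 ± 0.13 did not pass (limma adjusted p = 0.43). In control fat the arrays lay at 6.82, 6.84 and 6.94 at CT6 and at 7.66, 7.42 and 7.75 at CT18, and the step of 0.74 ± 0.13 passed (adjusted p = 0.023). The step was smaller in knockout fat by 0.48 ± 0.18, with a 95% interval from -0.86 to -0.09 before adjustment, and its p of 0.0169 did not pass over all genes (adjusted p = 1.00).

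The D-box factors split by sign. Dbp, an activator, lay at 7.67, 7.57 and 7.38 at CT6 and at 6.60, 6.92 and 6.54 at CT18, well separated. Its difference of -0.85 ± 0.16 missed the threshold (limma adjusted p = 0.0632), while the control step of -0.90 passed (adjusted p = 0.0272). The steps differed by 0.05 with an interval from -0.43 to 0.52. Hlf, a related activator, lay at 7.95, 7.92 and 7.65 and then at 7.20, 7.32 and 7.49, a difference of -0.50 ± 0.15 (adjusted p = 0.216). Tef, the third activator, differed by -0.06 ± 0.10 (-0.15 without CT18 replicate 3). Nfil3, the repressor at the same sites, was the other way round, at 7.57, 7.93 and 7.33 at CT6 and at 8.50, 8.28 and 8.72 at CT18. Its difference of 0.89 ± 0.26 did not pass (adjusted p = 0.21), whereas the control step of 1.37 did (adjusted p = 0.0471). The difference between those steps was -0.48 with an interval from -1.24 to 0.28.

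Among E-box repressors, Bhlhe41 lay at 8.21, 7.95 and 7.94 at CT6 and at 6.67, 7.23 and 7.07 at CT18. The groups were apart, yet -1.04 ± 0.35 did not pass (limma adjusted p = 0.276). Its relative Bhlhe40 differed by -0.22 ± 0.12. Ciart, a clock repressor, differed by -0.20 ± 0.23 (-0.13 without CT18 replicate 3), and its second probe set gave -0.55 ± 0.26.

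**Figure D2:**
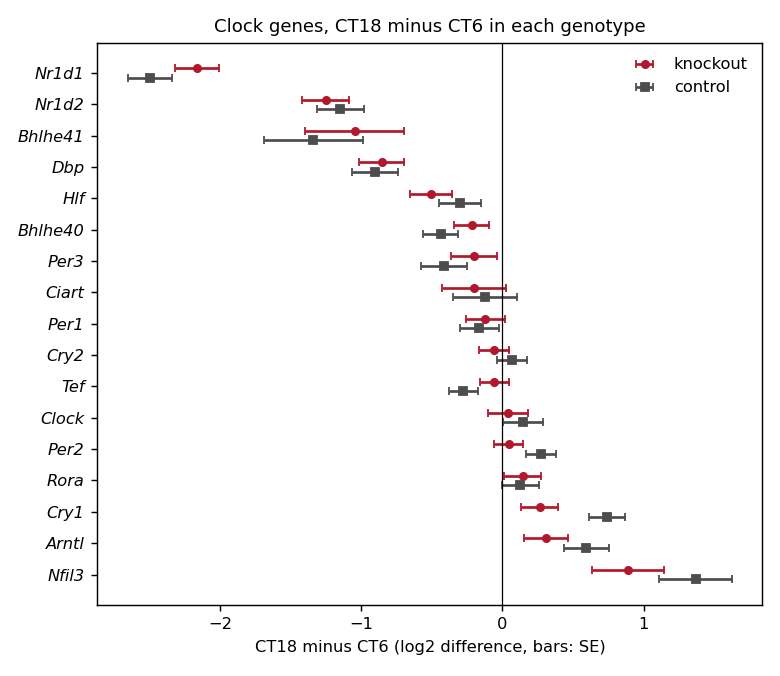
CT18 minus CT6 on the log2 scale (horizontal axis) for the 17 clock genes, as red circles for knockout and grey squares for control fat, with bars for the SE of the limma fit and 3 arrays a group at each time. Nr1d1 stands farthest to the left in both genotypes, at -2.16 and -2.50, and Cry1 and Nfil3 lie closer to 0 in knockout than in control fat, differences that did not pass over all genes.

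The same contrast in control fat, which shares no array with the knockout contrast, called 12 genes (0.0602%), 3 higher and 9 lower. Without control CT18 replicate 2, the control array with liver transcripts, 15 genes passed, 10 of them among the 12, and without control CT18 replicate 3 the count was 4. It was 7, 5 and 6 without control CT6 replicates 1, 2 and 3 in turn. Of the 4 genes called in knockout fat 75% were also called there, and these 3 were 25% of the control calls. The control calls that did not pass in knockout fat were Dbp, Cry1, Nfil3, Pfkfb3, Kit, Rasd1, Cxcl10, Zfp622 and H2bc1. Passing in one genotype alone does not show a difference. For that difference no gene passed by limma (0 of 19938), 619 genes had an unadjusted p under 0.05 where 997 would be expected, and the smallest adjusted p was 0.507. Without knockout CT18 replicate 2, 1 gene passed, Hspa1l. Of the 12 control calls 11 had the same sign in knockout fat, and over all genes the differences correlated at r = 0.44 (Spearman 0.38), a description across genes that are not independent. For the clock genes 16 of 17 had the same sign in both genotypes, against 66.3% of all genes. The knockout step was the smaller in size for 13 of the 17 (76.5%), against 44.4% of all genes, and no test was made of these counts.

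Cxcl10, an interferon induced chemokine, lay at 6.67, 6.97 and 6.64 at CT6 and at 6.71, 6.49 and 6.87 at CT18 in knockout fat, fully overlapping (-0.07 ± 0.12). In control fat it lay at 7.46, 6.98 and 7.12 and then at 6.52, 6.57 and 6.41, a step of -0.68 ± 0.12. The steps differed by 0.61 ± 0.16 (interval 0.27 to 0.95, limma adjusted p = 1.00). H2bc1, a histone gene read at about 4.3, well below the median gene level of 6.50, differed by -0.01 in knockout and 0.49 in control fat. Rasd1, a Ras-like protein gene induced by dexamethasone, lay at 7.06, 7.004 and 7.32 at CT6 and at 6.79, 6.42 and 6.27 at CT18, a difference of -0.63 ± 0.17 in knockout against -1.01 in control fat. Zfp622, a zinc finger gene, differed by -0.22 and -0.40.

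The other genes with the smallest p for the difference between genotypes also did not pass. Those whose step was more positive in knockout fat were Kir3dl2 (by 0.60 ± 0.11, the smallest adjusted p, 0.507), Mir17hg, the host transcript of a microRNA cluster (0.65), the odorant receptor gene Olfr374 (0.46) and Ofcc1 (0.58). Those more negative were Olfr1436 (-0.56), Taf5l, encoding a subunit of a histone acetyltransferase complex (-0.52), and the zinc finger genes Zfp28 (-0.56) and Zfp975 (-0.60). Kir3dl2, Mir17hg, Olfr374, Ofcc1 and Olfr1436 were read below the median gene level, at 3.27 to 5.84 on the 6 knockout arrays.

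**Figure D3:**
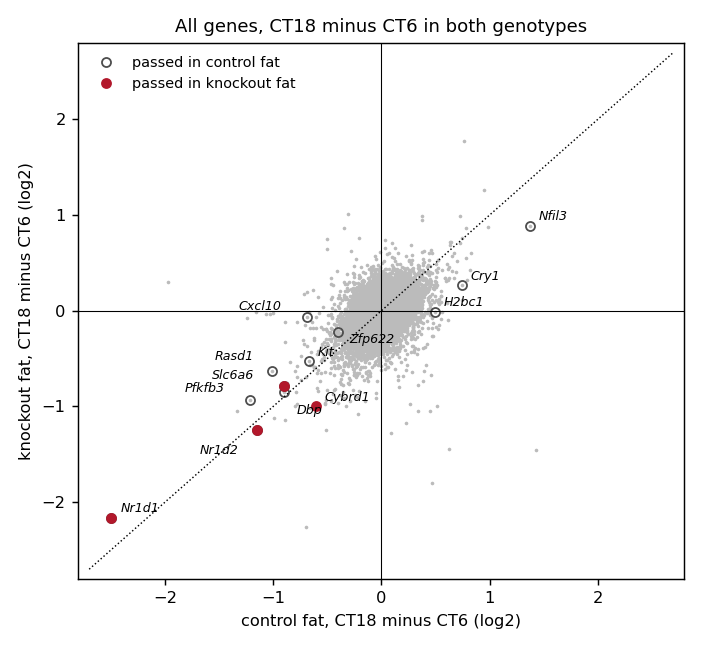
CT18 minus CT6 in log2 for each of 19938 genes, control fat on the horizontal axis and knockout fat on the vertical axis. Filled red points passed in knockout fat, open grey circles passed in control fat, and the dotted line marks equal differences. Nr1d1, Nr1d2 and Slc6a6 lie near that line, and Cxcl10 and H2bc1 lie near 0 on the knockout axis. The small points far from 0 without a name did not pass. The largest knockout difference, 2.25 in size, was that of Zim1, lower at CT18. Zim1 read 5.24 on CT18 replicate 3 and 9.05 and 9.19 on the other CT18 arrays.

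Next to the called genes stood 10 genes lower at CT18 with limma adjusted p between 0.0632 and 0.0718, all of the same sign in control fat. Besides Dbp these included Pfkfb3, whose enzyme makes the activator of phosphofructokinase and so speeds glycolysis. Pfkfb3 lay at 10.57, 10.79 and 10.84 at CT6 and at 9.70, 10.08 and 9.63 at CT18, a clear separation and a difference of -0.93 ± 0.18. Kit, encoding the stem cell factor receptor of mast cells, lay at 6.84, 6.91 and 6.91 and then at 6.17, 6.47 and 6.43, a difference of -0.53 ± 0.10. Fabp3, a fatty acid binding protein of muscle and heart, lay at 6.97, 6.61 and 6.57 and then at 6.02, 6.07 and 5.89. That difference was -0.73 ± 0.14, and a second Fabp3 probe set (10508614) gave -0.91 ± 0.14 and passed when probe sets were tested one by one (adjusted p = 0.0116).

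The remaining genes of the 10 were the transcription factor gene Atf7 (-0.59), Olfml2b of the extracellular matrix (-0.55), the autophagy receptor gene Sqstm1 (-0.38) and the centrosome gene Cep70 (-0.62). A second Atf7 probe set (10433034) gave only -0.20 ± 0.12 (limma adjusted p = 0.533 over probe sets), so the size of that fall depended on the probe set. Cdon, a Hedgehog co-receptor gene, gave -0.68 and Tmtc2 gave -0.65. Cdon lay at 7.53, 7.39 and 7.56 at CT6 and at 7.09, 6.97 and 6.39 at CT18, with replicate 3 lowest. In control fat it differed by -0.13, and the gap between the steps, -0.55 with an interval from -0.94 to -0.15, did not pass. Where genes of a mean level below 6 were left out, 12 genes passed, 11 lower and 1 higher.

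The 10 genes of smallest p among those higher at CT18 had limma adjusted p between 0.0632 and 0.149, and 8 of them lay below the median gene level. Osgin2, of a family linked to oxidative stress, was the first, at 7.80, 8.17 and 8.24 at CT6 and at 8.57, 8.67 and 8.58 at CT18 (0.54 ± 0.10). Lpar4 was the other well above the median, at 7.38, 7.99 and 7.41 and then at 8.93, 8.57 and 8.12 (0.95 ± 0.19, adjusted p = 0.0718). Hspa1l, of the HSP70 family, lay between 5.93 and 6.02 at CT6 and at 6.69, 6.11 and 6.75 at CT18, with replicate 2 barely above the day arrays. Siah2, a ubiquitin ligase gene, differed by 0.37 ± 0.08. Olfr1186, Olfr1132, Olfr374, Spdye4b, Spopfm2 and Defb26 differed by 0.34 to 0.50 and were read at 3.47 to 5.77. Of the 10, 6 had the same sign in control fat, against all 10 of the lower genes.

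Beyond the clock genes 37 lists of pathway genes and cell type markers were examined, and no member of any of them passed, so their values are descriptions. Genes that PPAR receptors induce in fasting were lower at CT18 in 7 of 10 members, with a median of -0.26. For 6 of the 10 the groups did not overlap, all lower at CT18, as for 5.95% of all genes. Cpt1a, which admits fatty acids to mitochondria, lay at 7.73, 8.12 and 7.85 at CT6 and at 7.49, 7.63 and 7.02 at CT18 (-0.52 ± 0.13, limma adjusted p = 0.195, and -0.34 without CT18 replicate 3). Ucp3, a mitochondrial carrier, lay at 7.52, 7.86 and 7.78 and then at 7.10, 7.09 and 6.79 (-0.73 ± 0.20). Pck1, whose enzyme makes the glycerol backbone in fasted fat, lay at 10.78, 10.93 and 10.89 and then at 10.66, 10.20 and 10.03 (-0.57 ± 0.16). Each of these CT18 arrays was below each CT6 array. Plin2, a lipid droplet coat protein, differed by -0.35 and Pdk4, which restrains glucose oxidation, by -0.42. The median of the list in control fat was -0.14, and in knockout fat it was -0.19 without CT18 replicate 3 and -0.27 without CT6 replicate 2.

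Triglyceride synthesis had 7 of 8 members higher, with a median of 0.34 against 0.17 in control fat. Dgat2, which adds the last fatty acid to a triglyceride, lay at 8.81, 9.57 and 9.13 at CT6 and at 9.62, 9.80 and 10.2 at CT18, so the highest day array nearly met the lowest night array (0.72 ± 0.33, limma adjusted p = 0.41). Gpam, which starts the pathway, differed by 0.40 ± 0.19. The list median was 0.21 without CT18 replicate 3 and 0.43 without CT18 replicate 2.

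De novo lipogenesis had 9 of 13 members higher and a median of 0.28, which was 0.06 without CT18 replicate 3. Elovl6, a fatty acid elongase, lay at 6.66, 6.87 and 6.67 at CT6 and at 6.87, 6.61 and 9.31 at CT18, so its difference of 0.87 ± 0.61 came from replicate 3 and was 0.01 without it. Thrsp, a regulator of lipogenesis, lay at 10.03, 10.47 and 9.63 and then at 10.86, 10.15 and 11.2 with overlap (0.69 ± 0.28, and 0.46 without CT18 replicate 3). Without CT6 replicate 2 the list median was 0.43, so its size followed the arrays included.

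Lipolysis and lipid droplet genes had a median of -0.08, which was 0.06 without CT18 replicate 3. Plin4, a droplet coat protein, differed by -0.55 ± 0.21 (-0.30 without that array) and G0s2, the inhibitor of adipose triglyceride lipase, by -0.49 ± 0.20. G0s2 lay at 9.58, 9.82 and 9.83 at CT6 and at 9.09, 9.40 and 9.27 at CT18, without overlap. Fatty acid uptake genes had a median of 0.04 and mitochondrial fatty acid oxidation genes one of 0.01, and these were 0.03 and 0.06 without CT18 replicate 3. Cholesterol synthesis genes had a median of 0.07, and Hmgcs1, an early enzyme, lay at 9.74, 10.49 and 10.18 and then at 9.61, 9.98 and 8.35, again lowest on replicate 3 (-0.82, and -0.34 without it).

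In the list of glucose uptake and insulin signalling 6 of 12 were higher and the median was 0.04 (0.08 without CT18 replicate 3). Akt2, the insulin-stimulated kinase of adipocytes, lay at 10.22, 10.45 and 10.17 at CT6 and at 9.82, 9.90 and 9.16 at CT18 (-0.65 ± 0.15, limma adjusted p = 0.149, and -0.42 without CT18 replicate 3). A second Akt2 probe set (10551393) gave -0.50 ± 0.13 (limma adjusted p = 0.183 over probe sets). Slc2a4, the insulin-responsive glucose transporter, differed by 0.30 ± 0.15. Pparg, the master regulator of fat cells, lay at 10.34, 10.46 and 10.55 and then at 10.14, 10.13 and 9.94, below each CT6 array (-0.38 ± 0.14, adjusted p = 0.296), beside -0.56 in control fat.

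Nampt, which makes a precursor of NAD, lay at 8.78, 8.94 and 8.86 at CT6 and at 9.48, 9.10 and 9.86 at CT18 (0.62 ± 0.21, limma adjusted p = 0.283, and 0.43 without CT18 replicate 3). It is shared by the lists of clock outputs, adipokines and NAD synthesis, whose medians were 0.20, 0.19 and -0.0036. Without CT18 replicate 3 these were 0.14, 0.12 and -0.01. Tsc22d3, a glucocorticoid-induced gene, lay at 7.94, 7.84 and 8.04 and then at 8.35, 8.23 and 8.81. Its difference was 0.53 ± 0.16 (0.35 without CT18 replicate 3), beside 0.52 in control fat. Glucocorticoid responsive genes were higher in 8 of 13, with a median of 0.12, which was 0.001 without CT18 replicate 3. Pdk4, also in that list, went the other way at -0.42. Fkbp5 reached 8.90 on CT18 replicate 3 alone, against 7.44 to 7.94 on the other 5 arrays.

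Respiratory chain genes were higher in 22 of 25 members by small amounts, a median of 0.12 and a highest difference of 0.35 in Cycs, encoding cytochrome c. Other Cycs probe sets gave 0.345 ± 0.156 (10462136) and 0.78 ± 0.20 (10544687), the latter read at a mean of 5.81. CT6 replicate 1 was the lowest of the 6 arrays for the respiratory chain list, at a mean of 10.1 against 10.3 to 10.4. Heat shock genes were higher in 8 of 10 with a median of 0.14 (0.08 without CT18 replicate 3), led by Hsph1 at 7.56, 7.58 and 7.77 and then at 7.96, 8.26 and 7.94 (0.42 ± 0.16). The cold-inducible RNA binding genes Rbm3 and Cirbp differed by -0.22 ± 0.07 and -0.29 ± 0.15. Interferon induced genes were lower in 11 of 15 with a median of -0.18, and Ifit2 differed by -0.44 ± 0.12, but no member's groups were apart. Their median was -0.04 without CT6 replicate 2.

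Immediate early genes had 13 of 17 members higher with a median of 0.06. Jun lay at 7.91, 8.18 and 7.97 at CT6 and at 8.41, 8.26 and 8.43 at CT18 (0.35 ± 0.12, limma adjusted p = 0.283). Medians of the remaining pathways lay between -0.03 and 0.12: ER chaperones 0.12, thermogenic genes 0.12, cell cycle genes 0.12, collagens 0.05, adipogenic factors -0.03 and ribosome biogenesis -0.03. Without CT18 replicate 3 the median of cell cycle genes was -0.01, of thermogenic genes 0.06, of collagens 0.13 and of ribosome biogenesis -0.07. Collagens were at -0.04 without CT18 replicate 2. Thermogenic Ppargc1a, a coactivator of mitochondrial genes, differed by -0.47 ± 0.25 beside -0.75 in control fat.

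**Figure D4:**
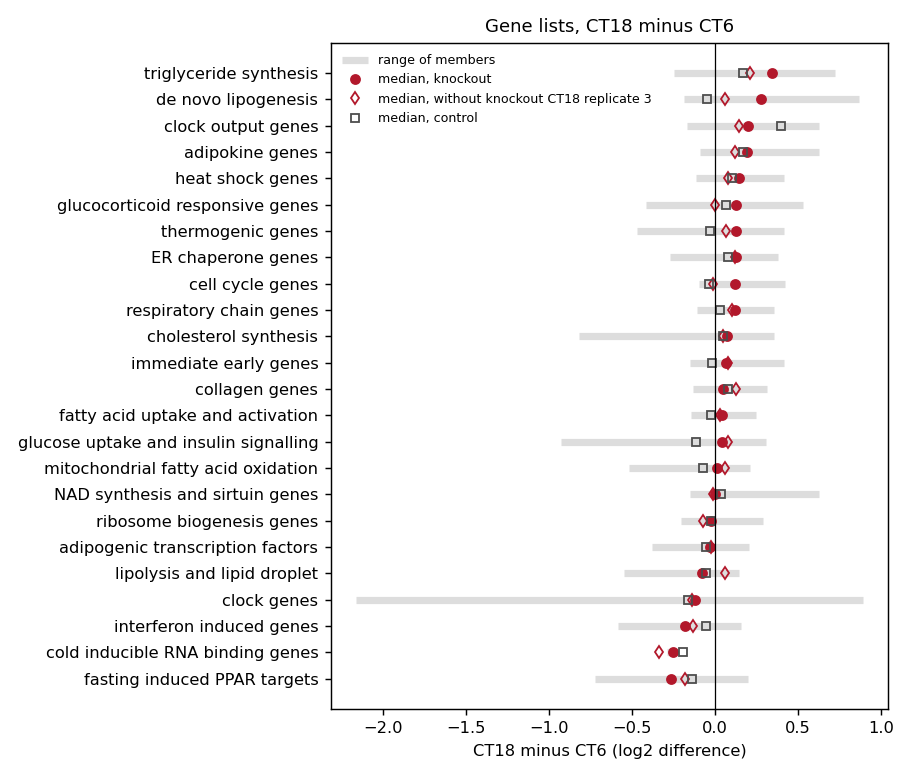
Median CT18 minus CT6 in log2 (horizontal axis) for each pathway list: red circles for knockout fat, open red diamonds for knockout fat without CT18 replicate 3, open grey squares for control fat, and pale bars for the range of the members in knockout fat. Triglyceride synthesis lies farthest to the right at 0.34, de novo lipogenesis drops from 0.28 to 0.06 without that array, and PPAR targets lie farthest to the left at -0.26.

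No cell type marker passed, and the lists of markers went different ways. Adipocyte markers had a median of 0.04 (0.09 without CT18 replicate 3), and their mean level lay at 11.0 to 11.2 at CT6 and 11.1 to 11.2 at CT18. Adipoq, which encodes adiponectin and defines the cell type, lay at 11.9 to 12.0 and at 12.0 to 12.1. Progenitor and fibroblast markers were lower in 8 of 9, with a median of -0.41, and averaged 9.10, 9.21 and 8.96 at CT6 and 8.89, 8.98 and 8.39 at CT18. Replicate 3 was far the lowest, and the median was -0.16 without it. Dpp4, a surface marker of early progenitors, lay at 10.03, 9.86 and 9.58 and then at 9.34, 9.55 and 8.88 (-0.57 ± 0.18, limma adjusted p = 0.246). Dcn, encoding decorin, differed by -0.27 ± 0.09 (-0.16 without CT18 replicate 3).

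Macrophage markers were lower in 12 of 13, and the groups of 7 did not overlap in that direction, as for 5.95% of all genes. They averaged 8.31, 8.46 and 8.23 at CT6 and 8.06, 8.21 and 7.74 at CT18, a median difference of -0.31, or -0.20 without CT18 replicate 3. Cd68, a lysosomal protein of macrophages, lay at 8.97, 9.38 and 8.93 and then at 8.28, 8.57 and 7.69 (-0.91 ± 0.30, limma adjusted p = 0.27). C1qa, a complement gene, lay at 8.54, 8.83 and 8.50 and then at 8.32, 8.44 and 7.26 (-0.62, and -0.24 without CT18 replicate 3). In control fat the macrophage median was 0.13, at 8.12 to 8.22 at CT6 and 7.94 to 8.53 at CT18.

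Mast cell markers were lower in 6 of 7, with a median of -0.37 (-0.32 without CT18 replicate 3). In control fat the median was -0.14, and 2 of 7 were higher. Cma1, a mast cell chymase, lay at 5.87, 5.71 and 5.50 and then at 5.37, 5.37 and 5.21, apart by a small margin (-0.37 ± 0.11, limma adjusted p = 0.225). The list averaged 6.09 to 6.30 at CT6 and 5.82 to 5.98 at CT18, near or below the median gene level. Kit belongs to it, and in control fat Kit differed by -0.67, farther from 0 than the control median of the list.

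Smooth muscle and pericyte markers were lower in 8 of 10 with a median of -0.39 (-0.26 without CT18 replicate 3), and Acta2, the smooth muscle actin, lay at 10.96, 11.06 and 11.76 and then at 10.87, 10.92 and 9.82 (-0.72, and -0.36 without that array). Mesothelium markers were lower in 8 of 9 with a median of -0.33 (-0.25 without CT18 replicate 3), beside -0.40 in control fat. All 9 were read above the median gene level. Endothelial markers had a median of -0.09, T cell markers 0.06, B cell markers 0.03, neutrophil markers 0.03 and skeletal muscle markers 0.12. Mammary and skin epithelium had 0.04, Schwann cells 0.02 and red blood cells -0.08. Without CT18 replicate 3 the medians of T cell, B cell and red blood cell markers turned to -0.10, -0.01 and 0.004, those of skeletal muscle and epithelium were 0.07 and 0.02, and that of neutrophils was 0.10. Within the Schwann cell list S100b, which adipocytes also express, read 6.93 on CT18 replicate 3 against 5.51 to 6.14 on the other 5 arrays. The part of these cell types in the differences of the called genes and the lists above was not tested.

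**Figure D5:**
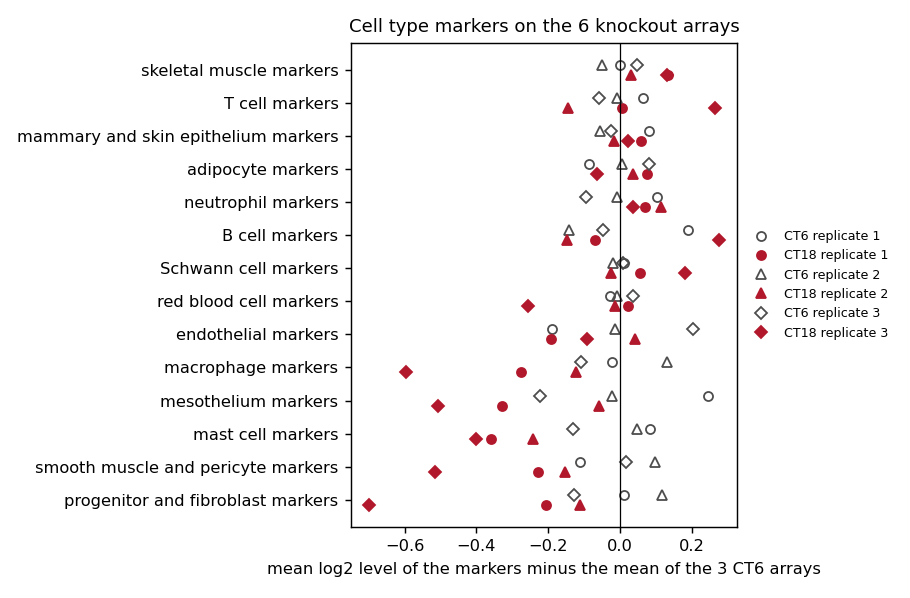
Mean log2 level of each cell type's markers on the 6 knockout arrays (horizontal axis, relative to the mean of the CT6 arrays), open grey symbols for CT6, filled red symbols for CT18, and a shape for each replicate number. The filled diamond of CT18 replicate 3 lies lowest for progenitor, macrophage, smooth muscle, mesothelium and mast cell markers, while the adipocyte markers of all 6 arrays lie close to 0.

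Over all 4 knockout times, 14 genes changed (limma F test, 0.0702% of those tested), a test that includes the CT6 and CT18 arrays. The 4 called genes were among them, with adjusted p of 1.40e-06 for Nr1d1, 0.00202 for Nr1d2, 0.0195 for Slc6a6 and 0.0366 for Cybrd1. The clock genes Dbp, Hlf and Per3 passed there too, and the remaining 7 were Apod, Art3, Atp11a, Ccl11, Cys1, Lemd3 and Snx1.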

How the data were processed

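Inguinal fat of 24 mice was profiled on Affymetrix mouse gene arrays, 1 array each, from 50 ng of amplified, biotin-labelled RNA, per the labels' protocols. The deposited log2 values were made by the authors with RMA, per the submitters' processing notes, and were used as deposited. Not given in the sources used here were RMA options, array dates and batches. The precision is limited by how many arrays there are.

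Names of probe sets came from the platform annotation. Of 35556 probe sets, 21789 had 1 gene symbol, 1621 several and 12146 none, and 21698 matched a RefSeq table (GRCm38.p6) by Entrez number. The probe set with the highest mean stood for each of 19938 genes, 999 of which had several.

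All 24 arrays were fitted with limma 3.58.1 in R 4.3.3 (lmFit, eBayes), with 8 group means, 16 residual and 5.03 prior degrees of freedom. P-values were adjusted by Benjamini-Hochberg over all genes, with a threshold of 0.05. Biological replicates are separate samples per the labels, and replicate numbers do not tie animals across times. Fits were tested on simulated data. Promoters were searched in Python 3.11.15.

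The comparison, the members and the gene lists were chosen with earlier results of these data known. Named were all measured clock genes, the called genes, the 10 of smallest p in each direction, the 5 of smallest p in each direction for the difference between genotypes, control calls, and up to 4 of smallest p per list described. Predicted and clone-based symbols were not named. Zim1, Ces1d, Slc2a4 and the liver genes are outside this rule and were chosen after their values were seen, and the 7 last genes of the F test are named because they complete its count.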

Additional observations from a re-analysis of the deposited data

How the results depend on the processing

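Nr1d1 and Nr1d2 passed under all 15 alternatives run, at -2.20 to -2.14 and -1.37 to -1.16. Slc6a6 passed in 12 of 15 and Cybrd1 in 8 of 15, without a change of sign. The 4 knockout calls became 13 (2 higher, 11 lower) after quantile normalization, 12 of 12552 genes with a mean of at least 6, and 2 when only the 6 arrays were fitted, where fewer residual degrees of freedom remain. Leaving out 1 array gave 3 to 115 calls, and 115 without CT18 replicate 2. Without replicate 3 at CT18 and replicate 1 at CT12 of both genotypes, which earlier results of these data place toward the other genotype, Nr1d1, Nr1d2 and Slc6a6 passed. With all probe sets of the array tested, an alternative chosen after seeing the data, 4 passed, none of them unnamed. The 12 control calls became 49 with array weights and 5 with only the arrays compared, and 4 to 15 when 1 array was left out. Leaving out 1 array gave 0 to 1 calls for the difference between genotypes. Other than where stated above, the cause was not tested.

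Deviations of same-numbered knockout arrays at CT6 and CT18 correlated at 0.32, 0.18 and 0.01, and 2 of 3 arrays at each time correlated best with their own number. Those of control arrays correlated at 0.14, 0.13 and -0.07. The numbers were not treated as pairing, since they do not tie animals across times. Whether same-numbered arrays share a batch was not tested. The replicate block gave 6 calls, the 4 with Cep70 and Tmtc2.

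Among the single genes, signs turned when 1 array was left out for Per2 (-0.0045 to 0.087), Clock (-0.069 to 0.21) and Tef (-0.15 to 0.014), and in the difference between genotypes for Dbp (-0.12 to 0.17) and Nr1d2 (-0.23 to 0.016). Of 59 results on single genes, 937 values kept their side of the threshold, 40 passed where they had not, 10 no longer passed and 9 changed sign. Of the list medians, 366 moved by less than the spread between replicates and 13 by more. The sign of 14 of 38 list medians, none of them a call, turned under some alternative, 5 of these without knockout CT18 replicate 3: lipolysis, cell cycle, T cell, B cell and red blood cell lists. Genes near the background of the array limit what dim genes can show.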
